A study of Mus musculus with 4 samples.

Results

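The genes described here carry the signal of fibroblast growth factor 4 (FGF4) through the kinase ERK in mouse embryonic stem cells (mESC), together with genes that ERK switches on and that dampen it. They are 10 of the 25239 gene symbols counted: the ligand gene Fgf4, the receptor gene Fgfr1, the transcription factor genes Etv4 and Etv5, the phosphatase genes Dusp4 and Dusp6, the inhibitor genes Spry2, Spry4 and Spred1, and the kinase gene Rps6ka2. Their rows were found by symbol, and some of them had been chosen because they were lower after loss of Ogt in these same libraries. Their changes are therefore given as a description, with no p value. Their calls come from the fit over all genes and support nothing here.

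The study measured polyadenylated RNA of Ogt fl/fl mESC, whose Ogt gene (O-GlcNAc transferase) can be deleted. The Ogt iKO (induced knockout) group held 2 libraries of cells grown with 4-hydroxytamoxifen (4-OHT) for 6 days, and the control group 2 libraries of cells of the same genotype grown without it. All cells grew on mitomycin C-treated mouse embryonic fibroblasts, with LIF and serum replacement, and were sorted before RNA extraction. Sorting for YFP is described for the treated cells alone, and the labels describe no cells with intact Ogt that received 4-OHT, so effects of the ligand, of recombination and of that gate cannot be told apart from loss of Ogt. The recombinase and the number of cell clones are not given in the sources used here. Nothing in the labels ties a replicate to a separate culture, so the spread between replicates may be technical.

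FGF4 is secreted by pluripotent cells and binds FGF receptors together with heparan sulfate chains on the cell surface. The receptor signals through the adaptors FRS2 and GRB2 to RAS, RAF, MEK and ERK, and in mESC this route is known for readying cells to leave the naive state and for directing cells of the early embryo to primitive endoderm. ERK activity induces its own brakes: Sprouty and SPRED proteins act on RAS and RAF, and DUSP phosphatases remove the activating phosphates from ERK. ERK also relieves repression by Capicua (CIC), a DNA-binding repressor of Etv4, Etv5 and other feedback genes.

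Promoter windows show the sequences in front of some of these genes. RefSeq windows of GRCm38.p6 were searched for 6 of the 10 genes, with 7 starts, over the 250 bases before each start and on both strands. No window of Fgfr1, Etv4, Dusp4 or Spry4 was searched, so nothing is known here of the motifs in front of them. The motifs were the ETS site CCGGAA, the CIC site TGAATGNA, the AP-1 site TGANTCA and the CRE site TGACGTCA. The ETS site is longer than the ETS core GGAA, which was not searched and which the Dusp6 window below holds. None of these motifs occurred in the 7 windows. They occurred in 12.0%, 3.20%, 6.75% and 1.55% of the 32851 windows of all genes. In the 14566 windows of the genes tested here the shares were 20.2%, 1.88%, 4.48% and 2.45%. So few windows cannot show a lack of such motifs, and nothing is read from their absence. The shorter string TGAATG, added after the sequences had been read and contained in the CIC site, occurred in 10.9% of all windows, in 7.07% of those of tested genes, and in those of Etv5 and Dusp6. In the Etv5 window it stood 242 and 198 bases before the start on the gene's strand and 129 bases before it on the other strand, and in the Dusp6 window 133 bases before the start. The windows below are those of the ligand, of the genes that hold TGAATG (in capitals, on either strand) and of Rps6ka2. The estimated change of Rps6ka2 was the largest of the 10 genes (log2 fold change -3.19, SE 0.135). It was not apart from that of Etv4 (-3.09, SE 0.111). The Etv5 window precedes the downstream of its 2 starts, and the Rps6ka2 window a start inside the span of the gene.
Fgf4, chr7:144861136-144861385, plus strand: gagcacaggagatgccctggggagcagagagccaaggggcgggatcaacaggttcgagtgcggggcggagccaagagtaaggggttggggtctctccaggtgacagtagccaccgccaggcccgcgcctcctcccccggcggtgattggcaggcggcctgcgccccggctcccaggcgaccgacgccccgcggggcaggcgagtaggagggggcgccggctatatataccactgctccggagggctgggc
Etv5, chr16:22438369-22438618, minus strand: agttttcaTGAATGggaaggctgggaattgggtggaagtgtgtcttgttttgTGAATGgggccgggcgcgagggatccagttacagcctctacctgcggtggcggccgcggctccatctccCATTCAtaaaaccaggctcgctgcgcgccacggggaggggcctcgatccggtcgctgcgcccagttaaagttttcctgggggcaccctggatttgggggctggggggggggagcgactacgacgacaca
Dusp6, chr10:99262981-99263230, plus strand: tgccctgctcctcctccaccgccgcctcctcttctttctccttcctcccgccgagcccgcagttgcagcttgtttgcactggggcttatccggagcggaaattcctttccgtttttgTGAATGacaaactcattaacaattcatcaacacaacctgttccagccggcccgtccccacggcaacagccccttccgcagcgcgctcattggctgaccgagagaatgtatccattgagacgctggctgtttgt
Rps6ka2, chr17:7169865-7170114, plus strand: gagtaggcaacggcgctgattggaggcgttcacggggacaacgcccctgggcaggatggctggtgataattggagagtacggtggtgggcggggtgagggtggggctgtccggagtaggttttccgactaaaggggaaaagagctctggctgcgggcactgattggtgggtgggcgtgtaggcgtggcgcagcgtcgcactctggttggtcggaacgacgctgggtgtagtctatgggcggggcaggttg

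Library totals ran from 14668489 to 16504204 counts. Ogt, the check of the labels, had 437 and 389 counts in Ogt iKO and 2963 and 3108 in control. Of the 14525 genes that passed the filter on low counts, 65.3% were called at an adjusted p under 0.05 in edgeR's quasi-likelihood test, 33.2% higher and 32.0% lower. That even split depended on the scaling, since 4827 higher and 4651 lower became 6105 and 3288 with library totals alone. All 10 FGF4-ERK genes passed that filter with at least 67 counts in each library. All 10 were called lower, with both Ogt iKO libraries below both controls, where 40.9% of tested genes had that order. Because some genes were chosen for being lower, nothing is read from this count. Their median log2 fold change was -0.92, against 0.024 over all genes tested. In bulk RNA, fewer cells that express a gene and less RNA per cell cannot be told apart.

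The libraries were also compared for RNA of feeder fibroblasts. The 20 fibroblast markers summed to 5184 and 2310 CPM (counts per 1000000, TMM-scaled) in the first and second Ogt iKO library, beside 2594 and 2947 CPM in the controls. Ogt iKO replicate 1 thus stood apart, with Col1a1 at 903 CPM against 179 CPM in Ogt iKO replicate 2. None of these markers was at 0 in any library. With all libraries 6 were called higher and none lower. These calls turned on the Ogt iKO libraries: without replicate 1, 6 were higher and 13 were lower, and without replicate 2, 19 were higher and none was lower. The 10 mESC markers summed to 2934 and 3295 CPM in Ogt iKO and to 5127 and 5078 CPM in control, and 9 of them were lower. The labels name CD90.2, the product of Thy1, as the mark of stem cells and CD326, the product of Epcam, as that of feeders. Per kb of exon, Epcam stood at 149 CPM and Thy1 at 5.21 CPM in control. EPCAM is known as a surface protein of mESC, so the marks look exchanged in the labels, and a sort run as written would have removed cells that carry it. Which gate was used cannot be told from the labels. With 1 library left out, the log2 fold changes of the FGF4-ERK genes ran from -3.41 (Rps6ka2) to -0.35 (Dusp4). As some of these genes were chosen for being lower, nothing is read from this range. The part of feeder RNA, or of a change in the share of stem cells, in the levels given here was not tested.

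The FGF4-ERK genes differed widely in level within control cells, on a scale of CPM per kb of exon. Fgf4 was highest, at 81.6 ± 2.83 (SD, n = 2). Etv5 (69.9 ± 1.11) and Spry2 (69.7 ± 2.19) came next, and their libraries overlapped. Dusp6 followed at 35.5 ± 2.66, then Spred1 at 32.4 ± 0.767 and Etv4 at 30.2 ± 2.60, and the last of these overlapped with Spred1. Fgfr1 stood at 15.8 ± 0.0263 and Spry4 at 12.8 ± 0.748. Rps6ka2 (4.11 ± 0.182) and Dusp4 (3.25 ± 0.465) were lowest. Exon lengths joined all annotated transcripts of a gene, so the order could differ where few of them are used.

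The order was not the same in Ogt iKO. Spry2 led at 41.5 ± 1.30 CPM per kb (SD, n = 2), followed by Etv5 at 33.0 ± 2.50 and Fgf4 at 29.0 ± 5.05, whose libraries overlapped with those of Etv5. Spred1 (23.6 ± 1.19) stood above Dusp6 (21.2 ± 0.587). Etv4 dropped below Spry4, at 3.55 ± 0.439 against 4.46 ± 0.623, and Rps6ka2 at 0.451 ± 0.0831 dropped below Dusp4 at 2.30 ± 0.0949. The plot of the 10 genes by library shows these levels without the division by length.

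**Figure D1:**
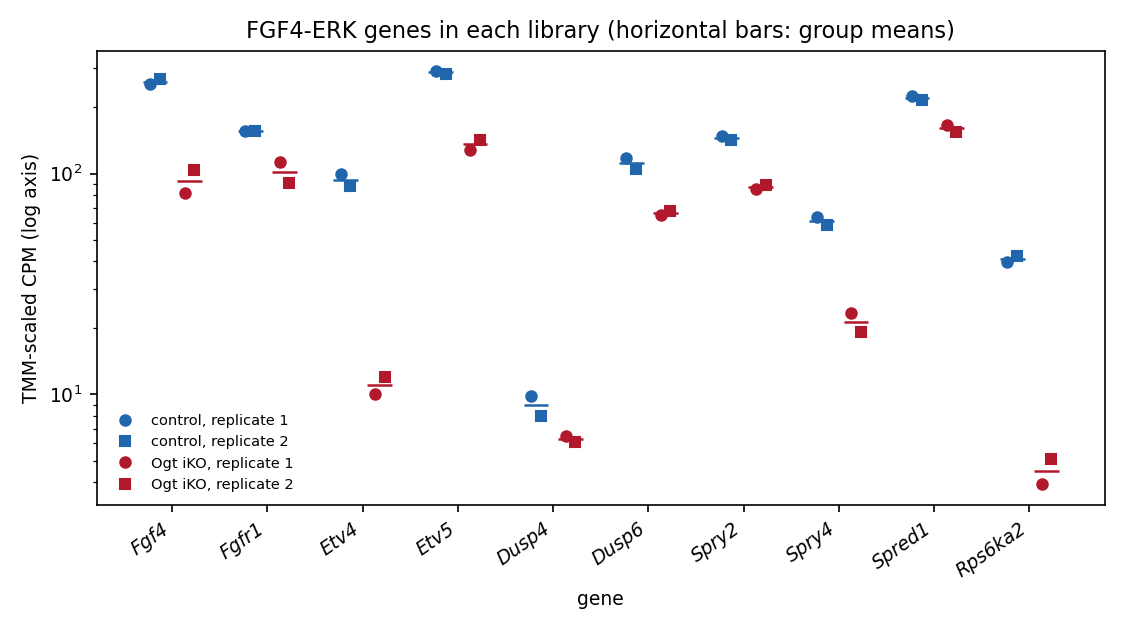
Level of each FGF4-ERK gene in the 4 libraries, as TMM-scaled CPM on a log axis, with a point per library and a horizontal bar at each group's mean. Both Ogt iKO points lie below both control points for all 10 genes, with the widest gaps for Etv4 and Rps6ka2.

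Fgf4, the ligand gene, lies on chromosome 7 from 144861386 to 144865245 in GRCm38. Its level was 254 and 267 CPM in the controls and 81.4 and 104 CPM in Ogt iKO. Both treated libraries were far below the controls, and they differed from each other more than the controls did. Fgf4 thus stood at 35.6% of control, with a log2 fold change of -1.49 (SE 0.103). Over the 4 pairs of a treated and a control library it ran from -1.72 to -1.29, and 2.42% of all tested genes had a lower fold change. The enhancer of Fgf4 is bound by SOX2 and OCT4. Sox2 stood at 33.2% of control (log2 fold change -1.59) and Pou5f1, which encodes OCT4, at 61.0% (-0.71), with adjusted p values of 7.546e-07 and 9.583e-05 in edgeR. An exon on the other strand covers 14.1% of the exon length of Pou5f1. Whether the lower Sox2 and Pou5f1 levels bear on that of Fgf4 was not tested.

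Fgfr1 encodes the main FGF receptor of mESC (chromosome 8, positions 25518759 to 25575718). It measured 156 and 157 CPM in the controls and 112 and 90.5 CPM in Ogt iKO. The controls were nearly equal, while Ogt iKO replicate 1, the library with the most fibroblast marker RNA, was the higher of the treated libraries. Fgfr1 is also active in fibroblasts. The log2 fold change was -0.62 (SE 0.0935), or 64.8% of control, and it was -0.78 without Ogt iKO replicate 1 and -0.50 without Ogt iKO replicate 2. Per exon length, Fgf4 stood at 503% and 527% of Fgfr1 in the controls and at 224% and 356% in Ogt iKO.

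Etv4 and Etv5 encode ETS transcription factors of the PEA3 group, induced by FGF signalling. Etv4, on chromosome 11 from 101769747 to 101785310, went from 99.4 and 88.0 CPM in the controls to 10.1 and 12.0 CPM in Ogt iKO. These were 1540 and 1351 counts against 172 and 186, so the level left in Ogt iKO was well above the detection limit. Etv4 stood at 11.8% of control (log2 fold change -3.09, SE 0.111), and 0.0688% of tested genes had a lower fold change. With 1 library left out it ran from -3.24 to -2.96.

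Etv5, on chromosome 16 from 22381313 to 22439570, was 290 and 284 CPM in the controls and 128 and 143 CPM in Ogt iKO. Its log2 fold change was -1.08 (SE 0.0661), or 47.2% of control, and ran from -1.18 to -0.99 over the 4 library pairs, a range apart from the -3.31 to -2.88 of Etv4. Per exon length, Etv4 stood at 45.3% and 41.0% of Etv5 in the controls and at 10.4% and 11.1% in Ogt iKO. Etv4 RNA thus became a smaller share of the pair. Etv1, the third gene of the group, was scarce at 1.50 CPM per kb in control and was also lower, at 8.58 CPM ± 0.893 against 19.9 CPM ± 1.78 (SD, n = 2), a log2 fold change of -1.22.

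Dusp6 encodes a cytoplasmic phosphatase selective for ERK, and Dusp4 a nuclear one. Dusp6, on chromosome 10 from 99263231 to 99267489, was 117 and 105 CPM in the controls and 65.2 and 67.8 CPM in Ogt iKO. The treated libraries were close to each other and stood at 59.8% of control (log2 fold change -0.74, SE 0.0739). Dusp4, on chromosome 8 from 34807610 to 34819894, had only 152 and 123 counts in the controls and 111 and 95 in Ogt iKO, or 9.81 and 8.01 against 6.49 and 6.12 CPM. Its groups did not overlap, but the gap between them was narrow, with a log2 fold change of -0.50 (SE 0.176). Dusp4 was not called by DESeq2, with libraries scaled by their totals, against a fold of 1.2, without control replicate 1 (log2 fold change -0.35) or without Ogt iKO replicate 2 (-0.48). Per exon length, Dusp4 stood at 9.58% and 8.69% of Dusp6 in the controls and at 11.4% and 10.3% in Ogt iKO, so the ratio of the pair moved little.

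Among the 8 other MAP kinase phosphatases tested, 5 were higher and 2 were lower. The lower ones were Dusp9 (169 CPM ± 7.18 in control and 77.0 CPM ± 9.18 in Ogt iKO, SD, n = 2, log2 fold change -1.13) and Dusp7 (-0.81), which like Dusp6 encode cytoplasmic phosphatases that act on ERK. The largest rises were those of Dusp8 (3.10), Dusp2 (2.06) and Dusp10 (1.39), all from under 2 CPM in each control. The products of Dusp8 and Dusp10 act mainly on the stress kinases JNK and p38, while that of Dusp2 is a nuclear phosphatase that also acts on ERK. Dusp16, for JNK and p38, rose by 0.30. Dusp1, chosen for mention after its value was seen like Dusp5, rose by 0.28, a call lost under 5 alternatives, among them without Ogt iKO replicate 1 and without control replicate 2. Dusp5, for a nuclear phosphatase of ERK, was at 0.24 and was not called, but it was called without Ogt iKO replicate 2 and with library totals as the only scaling. An antisense exon covers 22.1% of its exon length. As the counted strand is not known, such counts are uncertain. Phosphatases that act on ERK thus stood on both sides.

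Spry2 and Spry4 encode Sprouty proteins, which block the passage from receptor to RAS and RAF. Spry2, on chromosome 14 from 105891947 to 105896819, was 149 and 142 CPM in the controls and 84.8 and 88.6 CPM in Ogt iKO. All of its 4 library pairs gave nearly the same change, from -0.81 to -0.68, around a log2 fold change of -0.75 (SE 0.0610). Spry4, on chromosome 18 from 38586247 to 38601347, was 63.6 and 58.6 CPM in the controls and 23.3 and 19.1 CPM in Ogt iKO. It stood at 34.8% of control (log2 fold change -1.52, SE 0.107), against 59.6% for Spry2. Per exon length, Spry4 was 18.8% and 18.1% of Spry2 in the controls and 12.1% and 9.48% in Ogt iKO. Without Ogt iKO replicate 1 the log2 fold change of Spry4 was -1.67.

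Spred1 encodes a membrane-bound relative of Sprouty that recruits neurofibromin, the product of Nf1, to switch off RAS. It lies on chromosome 2 from 117121071 to 117182279 and was 224 and 216 CPM in the controls and 166 and 154 CPM in Ogt iKO. At 72.7% of control (log2 fold change -0.46, SE 0.0602) its estimated change was the smallest of the 10 genes, though not apart from that of Dusp4 (-0.50, SE 0.176), which was -0.35 without control replicate 1. The groups did not overlap, and 22.2% of all tested genes had a lower fold change. Of the 12 other Sprouty, SPRED and RAS regulator genes tested, 6 were lower and 4 were higher. Spred2 (log2 fold change -0.65) and Spred3 (-0.91) were lower, as was Pebp1 (-1.37), whose product inhibits the cascade, while Spry3, at 8 and 6 control counts, rose by 2.00. Also higher were Nf1 (0.49, from 44.9 and 52.1 CPM to 73.8 and 62.8 CPM), Rasa1 (0.35) and Rasa2 (0.49). These 3 genes encode proteins that switch off RAS and were chosen for mention after their values were seen. Rasa3, their relative, was lower (-0.94, from 15.2 and 15.9 CPM to 9.35 and 6.83 CPM).

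Rps6ka2 encodes RSK3, a kinase of the ribosomal S6 kinase family that ERK activates, and lies on chromosome 17 from 7088971 to 7303315. It had 616 and 650 counts in the controls and 67 and 79 in Ogt iKO, or 39.8 and 42.4 against 3.92 and 5.09 CPM. Both treated libraries were thus low and close to each other, at 11.0% of control. The log2 fold change was -3.19 (SE 0.135), and 0.0551% of all tested genes had a lower one. With 1 library left out it ran from -3.41 to -3.01.

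The relatives of Rps6ka2 changed in both directions. Rps6ka1 was at 72.2% of control (log2 fold change -0.47) and Rps6ka4 fell by 1.27 on the log2 scale, while Rps6ka3 rose by 1.33 and Rps6ka6 by 0.24, the last not called without control replicate 2 (0.19). Rps6ka3 went from 71.0 and 62.9 CPM to 180 and 156 CPM (adjusted p 6.913e-06, edgeR). Per exon length, Rps6ka2 was 7.63% and 8.23% of Rps6ka1 in the controls and 1.09% and 1.31% in Ogt iKO, so it was the scarcer of the pair in both groups. In all, 4 of the 7 other ERK-activated kinases tested were higher and 3 were lower, and without control replicate 2 only 2 were higher. The plot of the 4 families sets the listed genes beside their relatives.

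**Figure D2:**
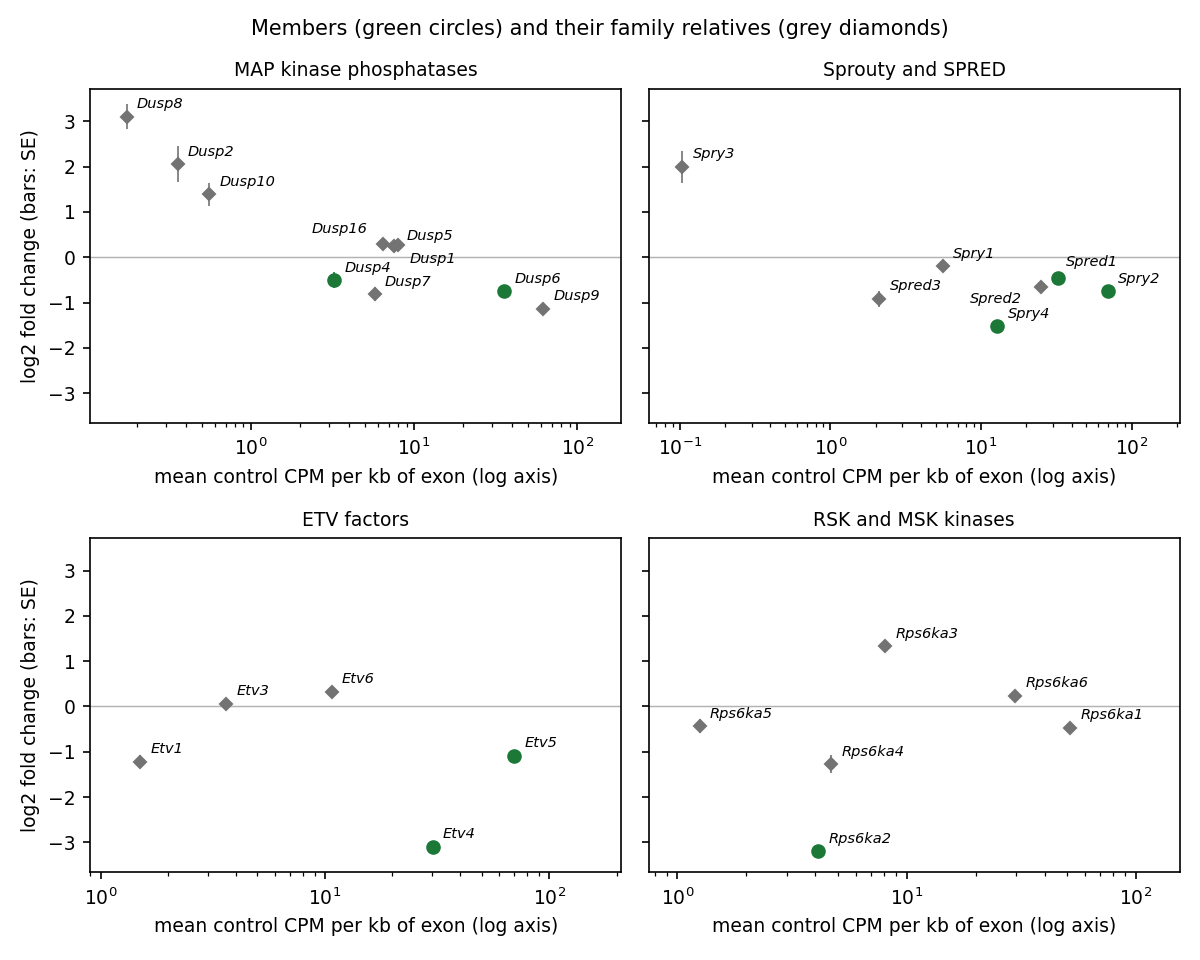
Log2 fold change (Ogt iKO over control, bars are SE) against mean control level (CPM per kb of exon, log axis) in 4 gene families, with FGF4-ERK genes as green circles and relatives as grey diamonds. Etv4 and Rps6ka2 lie below -3, while Dusp8, Dusp2 and Spry3, scarce in control, lie at 2 or above.

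The 10 genes differed in the size of their change. Rps6ka2 and Etv4 kept 11.0% and 11.8% of the control level. Spry4, Fgf4 and Etv5 kept 34.8%, 35.6% and 47.2%, and the other 5 genes kept from 59.6% (Spry2) to 72.7% (Spred1). Etv4 and Spred1, of like abundance per kb in control, kept 11.8% and 72.7%. Within families, Etv4 kept less than Etv5 and Spry4 less than Spry2, while Dusp4 and Dusp6 were closer, at 70.7% and 59.8%. With library totals as the only scaling, the median of all genes moved from 0.024 to 0.19 and the 10 genes ran from -3.02 (Rps6ka2) to -0.29 (Spred1), all still below 0.

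The rest of the pathway was counted in 9 lists of 120 genes chosen by role. Of the 108 tested, 47 were higher and 32 were lower, which is 43.5% and 29.6% of them, beside 33.2% and 32.0% of all genes. Their log2 fold changes had a median of 0.11 and ran from -1.84 to 3.10, and 46 were below 0.

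Of the 20 genes from adaptor to ERK, 6 were higher and 7 were lower, with a median of -0.032. Both shares were close to those of all genes. The largest rise was that of the adaptor gene Frs3 (log2 fold change 0.68), whose call was lost without control replicate 1 (0.58) and whose exon length is covered to 16.3% by an antisense exon. The lower ones included both MEK genes, Map2k1 (log2 fold change -0.49) and Map2k2 (-0.77), the kinase gene Mapk3 (-0.43) and Hras (-0.40). The last 4 genes stood at 58.7% to 75.9% of control, changes no larger than that of Etv5 in the FGF4-ERK genes. Nras did not pass the test, at 93.5% of control, and its sign turned with library totals as the only scaling.

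On the receiving side, 4 of 8 other receptor and co-receptor genes were higher and none was lower. DESeq2 called 2 of them higher, and without Ogt iKO replicate 1 there was 1 lower. Fgfr2 rose by 0.79, from 26.7 and 24.9 CPM to 43.8 and 45.4 CPM (adjusted p 6.442e-05, edgeR), opposite in direction to Fgfr1. Of the 10 other FGF ligand genes tested, 5 were higher and 3 were lower, but DESeq2 called 3 higher and 1 lower, and without control replicate 1 only 1 was lower. Fgf5 rose by 2.03, from 1.52 to 6.20 CPM per kb of exon, while Fgf4 in Ogt iKO stood at 29.0. Fgf15 fell by 1.84, but antisense exons cover 25.7% of its exon length. Among heparan sulfate genes, 12 of 22 were higher and 4 were lower, led by the core protein gene Sdc4, which rose by 2.74 from 52.6 and 53.9 CPM to 333 and 378 CPM.

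A list of 17 genes held other ETS factors, Srf, which encodes a partner of some of them, and Cic with its partners. Of these, 6 were higher and 5 were lower, Srf and Cic among the lower. Ets1 rose by 1.88 and Elf4 by 1.41, while Cic was at 76.0% of control (log2 fold change -0.40, adjusted p 0.00177, edgeR). The other 4 genes of a published signature of ERK activity, which also holds 6 of the 10 genes, gave 1 higher and 2 lower, or 1 lower without control replicate 1. Epha2, a receptor kinase gene, was at 404 and 399 CPM in the controls and 200.3 and 196 CPM in Ogt iKO (log2 fold change -1.02), and Epha4 was also lower (-0.68), though not without control replicate 1 (-0.41). Phlda1 rose by 0.49, a call that no fit without a library made, and an antisense exon covers 33.0% of its exon length.

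Immediate-early genes, which ERK and other kinases induce within minutes, were set beside the slower targets. Of 12 tested, 9 were higher (75.0%, beside 33.2% of all genes) and 2 were lower (16.7%, beside 32.0%). The lower ones were Ier2 (log2 fold change -0.45, from a mean of 132 to 96.8 CPM) and Ier3 (-1.04). Fos rose by 2.75, from 1.74 and 1.30 CPM to 11.8 and 8.76 CPM, Jun by 1.72 and Egr1 by 0.77, in the libraries in which Etv4, Etv5, Dusp6, Spry2 and Spry4 were lower. Among 9 primitive endoderm genes, Dab2 rose by 2.37, while Gata6 (0.99), Lama1 (0.32), Pdgfra (0.20) and Sox7 (-0.51) were not called. Sox17, with 1 and 2 counts in the controls, was called higher. In all, 5 of the 9 were higher (55.6%, beside 33.2% of all genes) and none was lower. Without Ogt iKO replicate 2, which leaves the library rich in fibroblast markers, 8 were higher. The call of Col4a1 was lost under 7 of 13 alternatives, among them without Ogt iKO replicate 1 (log2 fold change 0.13) and without either control. Of 8 formative epiblast genes, 2 were higher (Fgf5 and Sall2) and 5 were lower, among them Otx2 (-1.37) and Zic2 (-0.87). The plot of all lists shows the FGF4-ERK genes beside them.

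**Figure D3:**
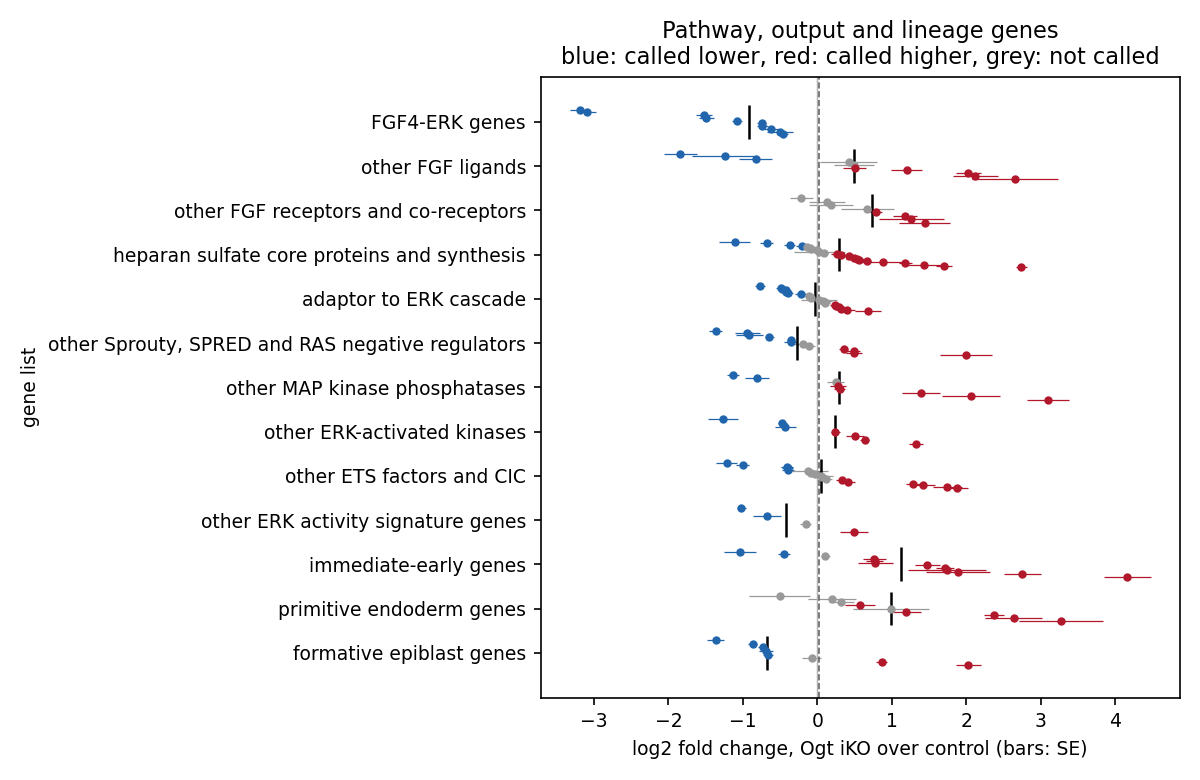
Log2 fold change (Ogt iKO over control) of each tested gene by list, with SE bars, a black bar at each list's median and a dashed line at the median of all genes tested (0.024). The FGF4-ERK genes, some of them chosen for being lower, all lie below 0, while the other pathway lists hold called genes on both sides except for the receptors, where no gene was called lower.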

How the data were processed

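Polyadenylated RNA of 2 Ogt iKO and 2 control libraries was analysed, grouped by the titles in the labels. The authors deposited raw counts per gene symbol, in tables with no rows that name no gene. STAR, Picard and build mm10 are named per the submitters' processing notes. Tool versions, annotation, counted strand and handling of reads with several positions are not given in the sources used here. Per the labels' protocols the kit was stranded.

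Counts were tested by the quasi-likelihood method of edgeR 4.0.16 under R 4.3.3 (TMM, filterByExpr, all 4 libraries in 1 fit), with Benjamini-Hochberg adjustment over 14525 genes and calls at an adjusted p under 0.05. The script was tested on simulated data. CPM used TMM-scaled totals. A count of 0 allows 3 counts, or 0.182 to 0.205 CPM on raw totals, counting error only. Standard errors (SE) are fold changes divided by the root of the F statistic. Positions came from RefSeq and exon lengths from GENCODE M21, both of GRCm38, the assembly mm10 names.

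The genes, lists and motifs were chosen with earlier results of these data known. Named genes were the 10 genes, from each list up to 5 called genes with the largest change, family relatives of at least 50 CPM, core genes of the cascade, Ogt, Pou5f1 and Sox2, of which some are not reported here. Alternatives were RLE or upper-quartile factors, library totals, DESeq2 1.42.0, a robust spread, no filter, a filter at a CPM of 1 in 2 libraries, the replicate number as a block, glmTreat against a fold of 1.2, and leaving out each library.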

Additional observations from a re-analysis of the deposited data

How the results depend on the processing

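Over 13 alternative settings, the log2 fold changes of the 10 FGF4-ERK genes kept their sign in all 130 refits, and 125 kept their side of the threshold. The 5 that did not were all of Dusp4. As some of the 10 genes were chosen for being lower in the same libraries, these refits support nothing about their direction. The count of other pathway genes called higher moved from 47 to 31 when glmTreat was asked for more than a fold of 1.2. The other counts over the 10 genes, the pathway as a whole, the downstream genes together and the whole table stayed within 1.5 times. Counts of single lists moved by more in 21 of 364 refits. Beside those given with the lists above, these were, with glmTreat, the genes from adaptor to ERK (6 to 1 higher), the other MAP kinase phosphatases (5 to 3 higher) and the heparan sulfate genes (4 to 2 lower). Fibroblast markers called higher went from 6 to 3 with a robust spread. The 1 higher gene of the ERK activity signature, Phlda1, was also not called with DESeq2, glmTreat or no filter. Of the other named genes, 1 turned sign, Nras with library totals as the only scaling (0.071), and it was not called. With the replicate block, 10 of the 10 genes, 47 and 31 of the other pathway genes (higher and lower) and 18 and 7 of the downstream genes were called. The deviations of same-numbered libraries correlated at 0.0764 across genes, and the numbers were not taken to pair the libraries. The cause of the lost calls of Dusp4 was not tested. Counting error weighs most on genes of few counts, such as Spry3 (8 and 6 in control). A library left alone in its group was assumed to vary like the other group.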
